A study of Mus musculus with 8 samples.

Results

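The genes described here encode ATP-binding cassette (ABC) transporters and organic ion transporters of mouse cells. They were the 42 genes of a given list of symbols, 34 of the ABC family and 8 of the solute carrier (SLC) family, and each was found through the RefSeq accession of its array probe. All 42 had a probe, 53 probes in all, among the 20660 genes that could be named on the array. RNA was measured on 8 one-colour Agilent arrays of BMEL cells, an established bipotential line of progenitors from the liver of mouse embryos. The cells had been kept in the medium labelled NoRX (3 arrays), CM (3 arrays) or DIFF (2 arrays). The labels spell out none of these names and give no time or dose, and the series title names the response of liver progenitor cells to medium conditioned by human amniotic epithelial cells. All arrays share the cell line. The title numbers the DIFF arrays as replicates 1 and 2, whereas the source label numbers both as replicate 1. The labels name no separate cultures behind the replicates. The p-values therefore rest on array-to-array spread alone, and this may be technical.

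ABC transporters use the energy of ATP to move lipids, bile salts, drugs, peptides and conjugated organic anions across membranes, and most of those in the liver are exporters. In hepatocytes, bile salts and organic anions are taken up from blood by SLC carriers of the basolateral membrane, and ABC pumps of the canalicular membrane secrete them into bile together with phospholipid, sterol and drugs. A further set of ABC pumps in the basolateral membrane returns conjugates to the blood, and some ABC proteins work inside the cell, in mitochondria, peroxisomes and lysosomes.

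Levels are given as log2 signals relative to the 75th percentile of the same array, so that a level of 0 is a signal at that percentile. Levels of different transporter probes were not set against each other. On 7 arrays 50.8% to 53.5% of spots were well above background, as the scanner software calls it, but on DIFF replicate 2 the share was 46.4%, and spots flagged for an uneven surround numbered 1159 there compared with 3 to 90 elsewhere. None of the probes used for the 42 genes lay among those spots. The tested transporter genes had a median SD between arrays of 0.054 in NoRX, 0.058 in CM and 0.172 in DIFF, and the median over all genes was 0.064, 0.064 and 0.194. Each of the 28 transporter genes above background on all arrays read lower on DIFF replicate 2 than on replicate 1. These differences ran from -0.052 (Abcb1b) to -0.64 (Slco3a1). The 75th percentile subtracted was 9.54 for DIFF replicate 1 and 9.93 for replicate 2. The part of this offset in the DIFF calls was not tested. Row 1 of the slide held NoRX 1 to 3 with CM 1, and row 2 held CM 2 and 3 with both DIFF arrays, so no row held both NoRX and DIFF. Of the marker genes of the labelled cell type, 12 of 13 hepatocyte and hepatoblast markers and 10 of 11 cholangiocyte and progenitor markers were well above background on at least 2 arrays. Lrat, Pdgfrb, Reln and Gfap of stellate cells, Adgre1 and Lyz2 of macrophages, Tek of endothelium, and Alas2 and Klf1 of red cells were not above background on any array. The summed linear signals of the lists, in multiples of the 75th percentile, mostly follow 1 or 2 bright genes, so the genes' own calls are given beside them. Of all genes tested, 26.9% were called higher and 25.3% lower in CM than in NoRX, and 14% higher and 28.1% lower in DIFF. The sum over the 13 hepatocyte and hepatoblast markers was 1158 to 1222 in NoRX, 908 to 986 in CM and 902 to 1141 in DIFF, and Krt18 and Krt8 made up 74.4% to 90.5% of it. Of its 12 tested genes, 5 were higher and 4 lower in CM, and 6 were higher and 5 lower in DIFF with a median difference of 1.02 from NoRX. Alb, the gene of albumin, was 8.87 higher in DIFF on the log2 scale, while Krt8 was lower (-0.67) and Krt18 too (-0.39). The sum over the 11 cholangiocyte and progenitor markers was 527 to 571, 370 to 385 and 402 to 491, of which Krt19 made up 77.2% to 91.3%. Of its 10 tested genes, 5 were higher and 4 lower in CM, and 2 were higher and 6 lower in DIFF. The 9 stellate and fibroblast markers summed to 0.587 to 0.613 in NoRX, 1.26 to 1.58 in CM and 0.267 to 0.359 in DIFF. Des made up 41.9% to 79.3% of that sum and was the 1 of 5 tested genes higher in CM, while Col1a1 was lower (-0.66) and 3 did not pass. In DIFF 2 of the 5 were lower. The 7 macrophage and leukocyte markers with a probe summed to 17.1 to 18.7, 21.6 to 22.5 and 10.8 to 13.2, with Itgam and Cd14 at 84.5% to 89.9% of the sum. Of 3 tested, 2 were higher in CM and 3 lower in DIFF. The 7 endothelial markers summed to 10.4 to 12.6, 10.6 to 11.5 and 8.45 to 9.97, with Kdr at 92.0% to 96.1%. Of 6 tested, 1 was higher and 2 lower in CM, and 1 was higher and 2 lower in DIFF. Their fitted differences from NoRX ran from -2.50 to 1.85 in CM and from -1.39 to 3.58 in DIFF, some on arrays below background. The 5 erythroid markers with a probe summed to 0.645 to 0.843, 0.447 to 0.709 and 0.837 to 0.919. Of 2 tested, 1 was lower in CM, and in DIFF 1 was higher and 1 lower. The part of these shifts in the results was not tested. In bulk RNA, fewer cells of a type and less RNA per cell cannot be told apart.

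A gene was tested where its probe was well above background on at least 2 of the 8 arrays, which held for 33 of the 42 genes and for 14035 genes in all. The other 9 were Abca1, Abca6, Abca8a, Abcb11, Abcc9, Abcd2, Abcg8, Slco2b1 and Slc51b, and 8 of these were not above background on any array. Among the 33, 28 were above background on all 8 arrays. The other 5, Abcc2, Abcg1, Abcg5, Slc47a1 and Slc51a, were below background throughout at least 1 group and passed only through the groups where they were high. They had to differ, so their calls and p-values are no independent evidence, and counts are also given for the 28. Differences were fitted with limma over all genes, and a gene was called higher or lower where its adjusted p fell below 0.05.

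In CM, 19 of the 33 tested transporter genes were higher than in NoRX, 4 were lower and 10 did not pass. Of all genes tested, 52.2% were called in this comparison, 26.9% higher and 25.3% lower. The fitted difference was at least 2-fold for 7 higher and 2 lower transporter genes, as for 6.21% and 5.19% of all genes, 11.4% in all. For Abcg5, 1 of the 7, the bound described below is under 2-fold. The median log2 difference over the 33 was 0.44, with 0.01 over all genes. Among the 28 genes above background everywhere, 15 were higher and 3 lower. Against NoRX, DIFF had 10 transporter genes higher and 12 lower with a median of -0.02, and 42.1% of all genes were called, 14% higher and 28.1% lower, with a median of -0.10. Fitted differences reached 2-fold for 3 higher genes (4.58% of all genes) and 1 lower gene (7.87% of all genes), 12.5% of all genes in either direction. Of the 3, Abcc2 was above background on no NoRX array and 1 DIFF array, so its fold is not fixed. Among the 28, 8 were higher and 12 lower. With each array centred on its median in place of the 75th percentile, all differences of DIFF from NoRX shifted by 0.18, and the split was 10 higher and 7 lower. Compared with CM, DIFF had 8 higher and 17 lower, with a median of -0.27, and 59.2% of all genes were called, 23.6% higher and 35.6% lower, with a median of -0.11. By the fit 3 transporter genes were at least 2-fold higher and 9 lower, as were 7.99% and 12.3% of all genes, 20.3% in all. Of the 3, Slc51a was above background on no CM array and 1 DIFF array, so its fold is not fixed. Among the 28, 6 were higher and 14 lower. Median centring shifted these differences by 0.22, and Abca5, Abcc3, Abcc5 and Abcf3 then lost their call as lower. The share of these genes called was 69.7%, 66.7% and 75.8% in the 3 comparisons. The comparisons share arrays, so their calls are not independent of each other. Left-out arrays moved some of these values by over 1.5 times. Without DIFF replicate 1 or 2 the lower calls in CM numbered 8, and the median difference of DIFF from CM was -0.43 when DIFF replicate 1 was left out and -0.11 when replicate 2 was. That of DIFF from NoRX was -0.14 without DIFF replicate 1. In all, 29 of the 33 were called in at least 1 comparison and 13 in all 3. The matching shares over all genes were not counted, here or for the patterns that follow. With 52.2%, 42.1% and 59.2% of all genes called in the single comparisons, these counts are no result about transporter genes. The most frequent patterns were 6 genes higher in CM and lower in DIFF than in NoRX (Abca2, Abcb9, Abcd3, Abcd4, Abcg2 and Slco4a1) and 6 genes higher in CM than in both other media with no call between DIFF and NoRX (Abca5, Abcb6, Abcc1, Abcc4, Abcg1 and Slc47a1).

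**Figure D1:**
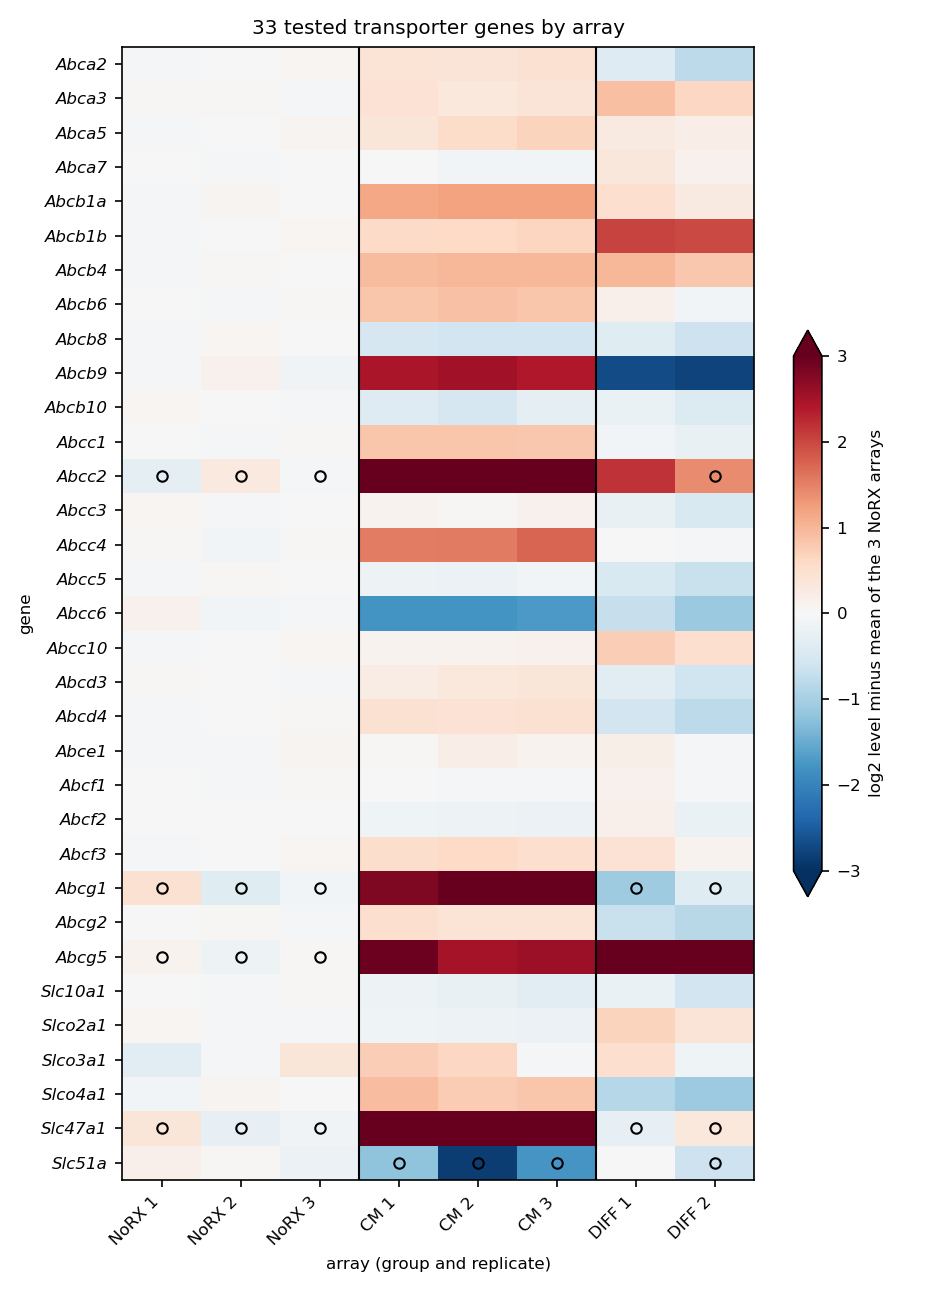
Each row is 1 of the 33 tested transporter genes and each column 1 array; the colour is the log2 level minus the gene's mean over the 3 NoRX arrays, with the scale limited to -3 and 3, and a circle marks a probe not well above background on that array. The CM columns are mostly red, with 19 genes called higher, while the DIFF columns hold both colours. Abcb9 is red in CM and blue in DIFF, and Abcb1b is redder in DIFF than in CM.

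The multidrug pumps of the apical membrane moved in different orders across the media. Abcb1a and Abcb1b encode the mouse forms of P-glycoprotein, which exports many lipophilic drugs, and Abcb4 encodes the closely related phospholipid flippase of bile. The 3 genes are neighbours on 1 chromosome. Abcb1a read 2.65, 2.81 and 2.69 on the NoRX arrays, 3.87, 3.91 and 3.93 on the CM arrays and 3.22 and 2.99 on the DIFF arrays. It was 2.28-fold higher in CM than in NoRX (log2 difference 1.19 ± 0.08 SE, adjusted p = 4.92e-07) and 1.74-fold lower in DIFF than in CM (-0.80 ± 0.09, adjusted p = 1.33e-05). The arrays of the 3 groups did not overlap, with CM highest and DIFF between. The difference of DIFF from NoRX, 0.39 ± 0.09 with adjusted p = 0.00386, lost its call with slide row as a block (0.34, adjusted p = 0.194) and with array weights (adjusted p = 0.0873).

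For Abcb1b the order was another one. Its levels were 0.55, 0.58 and 0.64 in NoRX, 1.15, 1.19 and 1.25 in CM and 2.62 and 2.57 in DIFF. All CM arrays lay above all NoRX arrays, and both DIFF arrays lay above all others. Abcb1b was 1.52-fold higher in CM (0.61 ± 0.07, adjusted p = 2.14e-05) and 4.0-fold higher in DIFF (2.00 ± 0.07, adjusted p = 3.82e-09) than in NoRX. DIFF exceeded CM for Abcb1b by 1.39 ± 0.07 on the log2 scale (adjusted p = 3.61e-08), opposite in sign to Abcb1a, and the difference between the paralogs was not tested. Abcb4 rose in both media, with levels of 2.15, 2.24 and 2.22 in NoRX, 3.14, 3.20 and 3.19 in CM and 3.21 and 3.02 in DIFF. The CM and DIFF arrays overlapped and both stood above NoRX, by 0.97 ± 0.07 (adjusted p = 9.89e-07) and 0.91 ± 0.08 (adjusted p = 3.24e-06). Between DIFF and CM the Abcb4 difference was -0.06 ± 0.08 (adjusted p = 0.523).

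The start regions of the paralogs Abcb1a and Abcb1b are shown because their order across the media differed. Each is the window from 250 bases before to 50 after the annotated start, from RefSeq on build GRCm38.p6, on the + strand, at chr5:8566841-8567140 for Abcb1a and chr5:8797897-8798196 for Abcb1b. Capitals mark matches, on either strand, to 6 short motifs: the TATA box (TATAAA), the CCAAT box (CCAAT), the GC box (GGGCGG), the E box (CACGTG), the core of the antioxidant response element (TGACNNNGC) and the nuclear receptor hexamer (AGGTCA). No matches of different motifs overlapped in the windows printed here.
Abcb1a: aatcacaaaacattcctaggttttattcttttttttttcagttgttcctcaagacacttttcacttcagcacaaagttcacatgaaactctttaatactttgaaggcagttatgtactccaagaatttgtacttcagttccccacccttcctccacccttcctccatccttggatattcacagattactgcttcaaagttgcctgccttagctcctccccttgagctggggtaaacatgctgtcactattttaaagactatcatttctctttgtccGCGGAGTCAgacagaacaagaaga
Abcb1b: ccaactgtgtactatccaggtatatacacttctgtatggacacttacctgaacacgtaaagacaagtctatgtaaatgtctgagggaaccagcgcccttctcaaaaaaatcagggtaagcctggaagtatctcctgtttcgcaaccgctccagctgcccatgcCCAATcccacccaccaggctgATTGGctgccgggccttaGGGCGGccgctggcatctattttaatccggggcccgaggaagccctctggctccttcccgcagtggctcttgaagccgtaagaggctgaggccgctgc
The Abcb1a window held 1 antioxidant response element core and no other match, and the Abcb1b window 2 CCAAT boxes and 1 GC box. Their GC content was 40.3% and 55.0%, with a median of 52.7% over all windows. Among 32851 windows of this length, 13.6% held the TATA box, 37.4% the CCAAT box, 35.7% the GC box, 7.15% the E box, 12.4% the antioxidant response element core and 16.3% the nuclear receptor hexamer. Of the 42 transporter genes, 32 had a window (not Abca6, Abcb8, Abcc1, Abcc3, Abcc6, Abcd2, Abcd4, Abcg1, Slco3a1 and Slc47a1). Of these 32 genes, 7, 13, 18, 5, 4 and 9 held the 6 motifs, in the same order, in any of their windows. These counts are per gene, whereas the shares before them are per window. A match describes the letters only.

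Abcg2, the breast cancer resistance protein, exports drugs, urate and porphyrins at apical membranes. It read 3.34, 3.40 and 3.32 in NoRX, 3.85, 3.76 and 3.76 in CM and 2.70 and 2.53 in DIFF, without overlap between the groups. Abcg2 was 1.36-fold higher in CM than in NoRX (0.44 ± 0.07, adjusted p = 0.000302). In DIFF it was 1.67-fold lower than in NoRX (-0.74 ± 0.08, adjusted p = 1.6e-05) and 2.26-fold lower than in CM (-1.18 ± 0.08, adjusted p = 2.02e-07). Abcb11, the bile salt export pump, was not tested, since its probe was well above background on 1 CM array only.

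Among the multidrug resistance-associated proteins of the ABCC subfamily, which export glutathione, glucuronide and sulfate conjugates, Abcc2 and Abcc4 rose most in CM. Abcc2 encodes the canalicular pump for conjugated bilirubin. Its signals were -7.11, -6.55 and -6.89 in NoRX, where no array was above background, -2.67, -2.65 and -2.48 in CM, where all were, and -4.67 and -5.43 in DIFF, where only replicate 1 was. The groups did not overlap. A gene below background in a group has only a bound there. For it, each array of the dim group was given either the gene's signal or the lowest well-above-background signal of that array, whichever was larger, and the bright group's mean was compared with the mean of these values. By that bound Abcc2 was at least 6.35-fold higher in CM than in NoRX, with measured means of -2.60 and -6.85 (adjusted p = 1.46e-06). For DIFF over NoRX the same calculation gave 1.16-fold, with a DIFF mean of -5.05 (adjusted p = 0.00203). This is not a strict bound, since DIFF replicate 2 was not above background and entered at its measured signal. The call was lost with slide row as a block (adjusted p = 0.0892) and with array weights (adjusted p = 0.124). The fit put DIFF below CM (-2.45 ± 0.36, adjusted p = 0.000136), but only 1 of the 2 DIFF arrays measured Abcc2, so the size of that difference is not fixed. With normexp background correction, which draws dim signals together, the CM difference of Abcc2 from NoRX was 1.22 (adjusted p = 0.000466), that of DIFF from NoRX 0.67, and that of DIFF from CM -0.55 (adjusted p = 0.0645).

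The Abcc2 window, on the + strand at chr19:43782058-43782357 of the same build, is shown because this gene had the largest fitted difference of the tested transporter genes between CM and NoRX.
Abcc2: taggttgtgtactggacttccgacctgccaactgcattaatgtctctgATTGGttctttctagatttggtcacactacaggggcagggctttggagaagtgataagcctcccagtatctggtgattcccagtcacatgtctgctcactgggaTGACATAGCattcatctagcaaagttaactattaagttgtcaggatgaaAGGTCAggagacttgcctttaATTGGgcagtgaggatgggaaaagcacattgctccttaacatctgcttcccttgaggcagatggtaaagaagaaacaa
It held 2 CCAAT boxes, 1 antioxidant response element core and 1 nuclear receptor hexamer.

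Abcc4 exports cyclic nucleotides and, with glutathione, bile acids across the basolateral membrane. Its levels were 1.39, 1.28 and 1.39 in NoRX, 2.90, 2.91 and 3.11 in CM and 1.37 and 1.31 in DIFF. The CM arrays stood apart from both other groups, which overlapped. Abcc4 was 3.07-fold higher in CM than in NoRX (1.62 ± 0.08, adjusted p = 5.34e-08) and 3.11-fold lower in DIFF than in CM (-1.64 ± 0.09, adjusted p = 3.57e-08). Between DIFF and NoRX it differed by -0.02 ± 0.09 (adjusted p = 0.872). Abcc1, a widely expressed exporter of glutathione conjugates and leukotriene, had the same calls, with levels of 2.54, 2.52 and 2.58 in NoRX, 3.39, 3.38 and 3.35 in CM and 2.46 and 2.32 in DIFF. CM was above NoRX by 0.83 ± 0.07 (adjusted p = 1.93e-06), and DIFF below CM (-0.98 ± 0.07, adjusted p = 5.75e-07).

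Abcc6, a liver transporter needed for ATP release and known from the mineralisation disorder pseudoxanthoma elasticum, fell in CM. Its levels were -2.12, -2.34 and -2.32 in NoRX, -4.05, -4.04 and -3.98 in CM and -2.96 and -3.38 in DIFF. No groups overlapped, and CM was lowest. Abcc6 was 3.39-fold lower in CM than in NoRX (-1.76 ± 0.17, adjusted p = 7.87e-06). With normexp this difference was -1.06 (adjusted p = 8.62e-05). DIFF lay below NoRX (-0.91 ± 0.19, adjusted p = 0.00252), which lost its call with slide row as a block (adjusted p = 0.0799), with array weights (adjusted p = 0.0971) and with normexp (-0.28, adjusted p = 0.205). DIFF was above CM by 0.85 ± 0.19 (adjusted p = 0.00233; adjusted p = 0.079 with array weights). A second Abcc6 probe was not above background on any array.

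Abcc3, the basolateral exporter of glucuronides and bile acids, differed by 0.09 ± 0.08 between CM and NoRX (adjusted p = 0.331) and was lower in DIFF than in NoRX (-0.35 ± 0.09, adjusted p = 0.00696; adjusted p = 0.221 with slide row as a block and 0.0843 with array weights). That difference was -0.22 without DIFF replicate 2, and with median centring it was -0.17 and lost its call (adjusted p = 0.335). Abcc10, which exports lipophilic drugs, was higher in DIFF than in NoRX by 0.62 ± 0.09 (adjusted p = 0.000139) and than in CM by 0.51 ± 0.09 (adjusted p = 0.000358). Its difference between CM and NoRX was 0.11 ± 0.08 (adjusted p = 0.252). Abcc9, the sulfonylurea receptor subunit of a potassium channel, was not above background on any array.

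**Figure D2:**
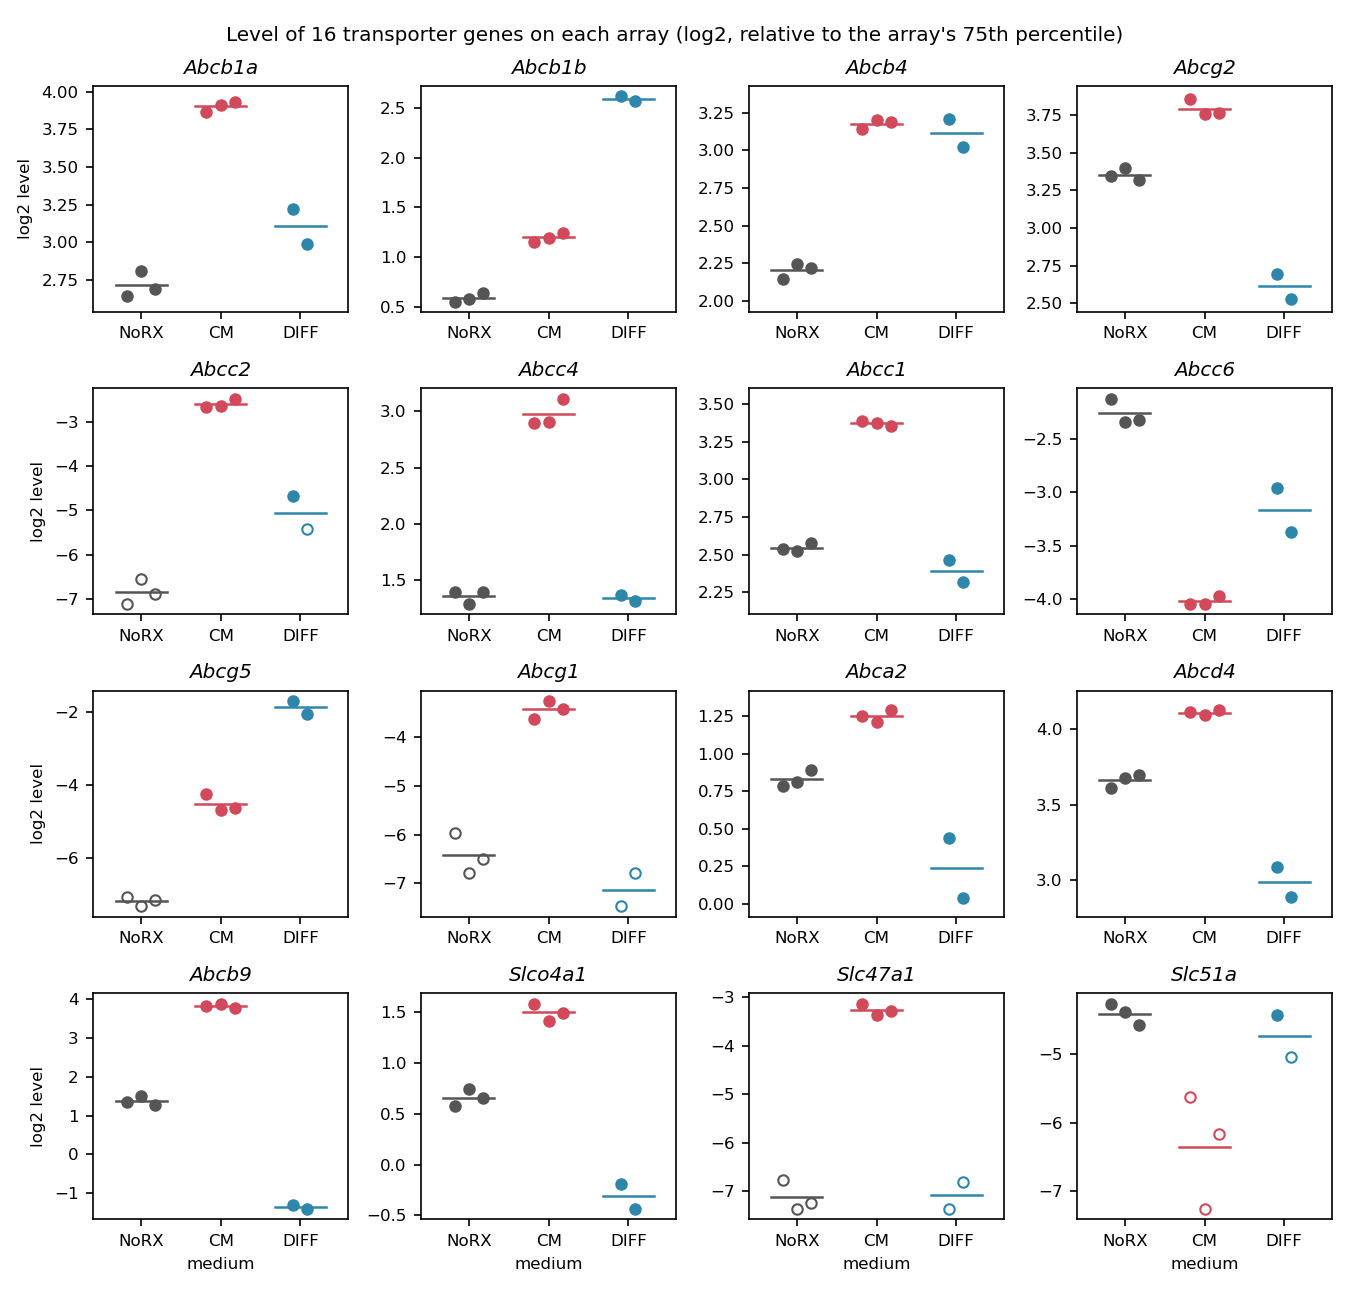
Each panel gives the log2 level of 1 gene relative to the array's 75th percentile, with 1 point per array, a line at the group mean and an open point where the probe was not well above background; every panel has its own vertical scale. Abcb1a is highest in CM and Abcb1b in DIFF, Abcc4 and Abcc1 stand apart in CM, and Abcc2, Abcg1, Abcg5 and Slc47a1 have only open points in NoRX.

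Abcc5, which exports cyclic nucleotides and glutamate conjugates, had 4 probes for 2 RefSeq transcripts, of which the probes of 1 passed in CM and those of the other did not. The brightest probe, which stood for the gene, belongs to the transcript called the first here. It read 4.54, 4.60 and 4.57 in NoRX, 4.41, 4.39 and 4.50 in CM and 4.11 and 3.89 in DIFF. CM differed from NoRX by -0.14 ± 0.07 (adjusted p = 0.134), and DIFF was lower than NoRX (-0.57 ± 0.08, adjusted p = 0.000171). In a fit of the single probes, added after the data were seen and covering 18395 probes (51.7%, 40.6% and 58.5% of them called in the 3 comparisons, in the order used above), the other probe of the first transcript differed by -0.10 between CM and NoRX (adjusted p = 0.465). One probe of the second transcript read 0.98, 0.86 and 0.75 in NoRX, -1.39, -1.28 and -0.96 in CM and -0.03 and -0.22 in DIFF. It fell by 2.07 ± 0.12 in CM (adjusted p = 1.81e-07), with no overlap between the groups. The other probe of the second transcript read 1.31, 1.35 and 1.42 in NoRX, 0.38, 0.22 and 0.38 in CM and 0.53 and 0.35 in DIFF, and fell by 1.03 ± 0.08 in CM (adjusted p = 1.98e-06). In DIFF all 4 probes were below NoRX, with differences of -0.57 and -0.68 for the first transcript and -0.99 and -0.92 for the second and adjusted p between 1.1e-05 and 0.000699. Against CM, DIFF was lower for both probes of the first transcript (-0.43 and -0.58, adjusted p = 0.000803 and 0.00119). With median centring both calls were lost (-0.21 and -0.37, adjusted p = 0.22 and 0.0601). Of the second transcript, 1 probe was higher in DIFF than in CM (1.09, adjusted p = 2.9e-05) and the other did not pass (0.11, adjusted p = 0.311). With median centring that other probe was called higher (0.33, adjusted p = 0.0466). The gene's call as lower in DIFF than in CM therefore held for the first transcript only, and there only with some scalings. The difference between the transcripts in these changes was not tested, and levels of different probes cannot be compared.

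**Figure D3:**
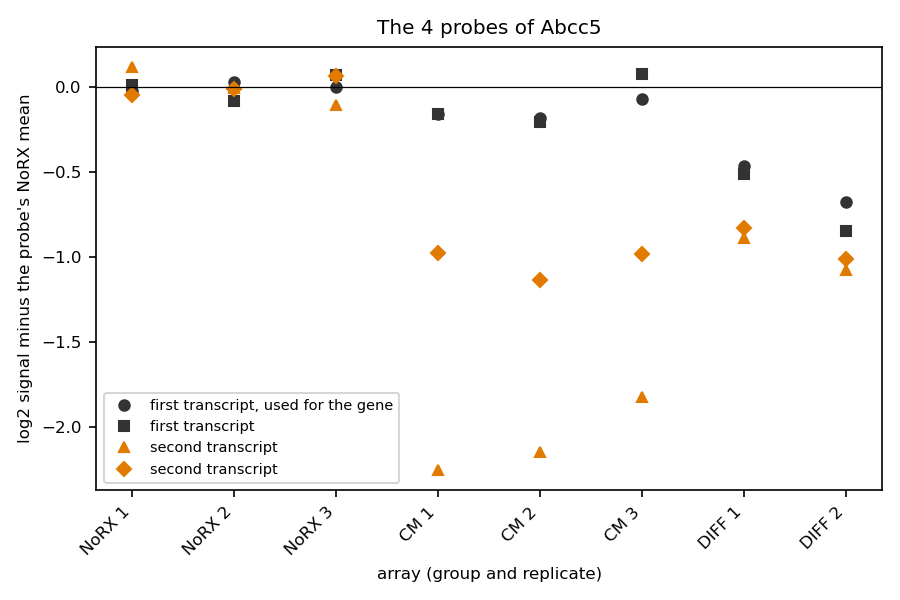
The log2 signal of the 4 Abcc5 probes on each array is plotted as the difference from the probe's mean over the NoRX arrays, in black for the first transcript and in orange for the second. On every CM array both orange points lie below both black points, and on the DIFF arrays all 4 points lie below 0.

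Among the sterol and lipid transporters, Abcg5 and Abcg1 rose from below background and followed different orders. Abcg5 forms with Abcg8 the heterodimer that secretes cholesterol and plant sterols into bile. Abcg5 read -7.08, -7.33 and -7.16 in NoRX, -4.24, -4.68 and -4.63 in CM and -1.69 and -2.04 in DIFF, with no overlap and DIFF highest. No NoRX array was above background, and all arrays of both other groups were. Abcg5 was at least 1.68-fold higher in CM, with measured means of -4.52 and -7.19 (adjusted p = 2.78e-05), and at least 10.6-fold higher in DIFF, with a mean of -1.86 (adjusted p = 2.62e-07). DIFF exceeded CM by 2.65 ± 0.34 (adjusted p = 4.48e-05). With normexp Abcg5 was above NoRX by 0.47 in CM and 2.09 in DIFF, DIFF exceeded CM by 1.62, and each kept its call. The probe of the partner Abcg8 was not above background on any array, including the DIFF arrays where Abcg5 was highest.

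The genes Abcg5 and Abcg8 lie head to head, so that their start windows share 209 bases. The Abcg5 window, on the - strand at chr17:84682962-84683261, is shown because it serves a gene that rose while its neighbour was not detected.
Abcg5: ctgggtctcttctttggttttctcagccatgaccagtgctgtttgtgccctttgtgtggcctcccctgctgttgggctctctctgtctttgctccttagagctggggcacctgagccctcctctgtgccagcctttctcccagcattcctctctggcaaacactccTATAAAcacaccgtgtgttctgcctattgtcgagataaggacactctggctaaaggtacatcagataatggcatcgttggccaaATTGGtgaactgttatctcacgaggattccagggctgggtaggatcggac
It held 1 TATA box and 1 CCAAT box, and its GC content was 52.3%.

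Abcg1 passes cholesterol to high-density lipoprotein. It read -5.97, -6.78 and -6.51 in NoRX, -3.61, -3.26 and -3.41 in CM and -7.47 and -6.79 in DIFF, and only the CM arrays were above background. Abcg1 was at least 3.58-fold higher in CM than in NoRX, with measured means of -3.43 and -6.42 (adjusted p = 0.000123). Compared with DIFF, whose mean was -7.13, it was at least 2.77-fold higher in CM (adjusted p = 3.86e-05). With normexp the CM difference from NoRX was 0.86 (adjusted p = 0.013), and that of DIFF from CM lost its call (-0.48, adjusted p = 0.156). Abca1, which starts high-density lipoprotein formation by loading cholesterol on apolipoprotein A-I, was not above background on any array.

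Of the other ABCA genes, Abca2 encodes a sterol and lipid transporter of lysosomes. Its levels were 0.78, 0.81 and 0.89 in NoRX, 1.25, 1.21 and 1.29 in CM and 0.44 and 0.04 in DIFF, with no overlap. Abca2 was lower in DIFF than in CM (-1.01 ± 0.11, adjusted p = 1.22e-05). It was higher in CM than in NoRX by 0.42 ± 0.10 (adjusted p = 0.00379; adjusted p = 0.0503 with slide row as a block). DIFF lay below NoRX (-0.59 ± 0.11, adjusted p = 0.00123; adjusted p = 0.0599 with slide row as a block), and the difference was -0.39 without DIFF replicate 2. In the fit of single probes the other Abca2 probe, of the same transcript and above background on all arrays, did not pass in CM (0.20, adjusted p = 0.134) and was lower in DIFF than in NoRX (-0.79, adjusted p = 0.000287). Abca3, the lipid transporter of lamellar bodies, was higher in CM by 0.38 ± 0.08 (adjusted p = 0.00244) and in DIFF by 0.76 ± 0.09 (adjusted p = 4.65e-05). Abca5, of lysosomes, was higher in CM by 0.52 ± 0.10 (adjusted p = 0.000855; adjusted p = 0.0579 with slide row as a block). Its call for DIFF against CM (-0.29 ± 0.11, adjusted p = 0.0342) was lost under 12 of 24 alternatives, with a difference of -0.077 with median centring (adjusted p = 0.74) and adjusted p = 0.334 with array weights. These included leaving out NoRX replicate 1 or 2, CM replicate 2 or 3, or DIFF replicate 2, at adjusted p between 0.0501 and 0.136. The other probe of Abca5 was higher in CM by 1.07 (adjusted p = 0.0029) and lower in DIFF than in CM (-0.71, adjusted p = 0.0382) in the fit of single probes. Abca7, a phospholipid transporter related to Abca1, differed by -0.05 ± 0.07 in CM (adjusted p = 0.61) and was higher in DIFF than in NoRX by 0.22 ± 0.08 (adjusted p = 0.0441). That call ended when any 1 of the NoRX or CM arrays or DIFF replicate 1 (0.12, adjusted p = 0.0782) was left out, with array weights (adjusted p = 0.206), with slide row as a block (adjusted p = 0.197) and with normexp (0.13, adjusted p = 0.45). Abca6 and Abca8a were not above background on any array.

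The largest change between DIFF and CM among the tested transporter genes was that of Abcb9, which encodes the peptide transporter of lysosomes. Abcb9 read 1.34, 1.50 and 1.28 in NoRX, 3.82, 3.89 and 3.78 in CM and -1.32 and -1.41 in DIFF, each array well above background. The groups lay far apart, with CM highest and DIFF lowest. It was 5.50-fold higher in CM than in NoRX (2.46 ± 0.08, adjusted p = 3.97e-09) and 6.66-fold lower in DIFF than in NoRX (-2.74 ± 0.09, adjusted p = 1.2e-09). Between DIFF and CM the difference was -5.19 ± 0.09, or 36.6-fold (adjusted p = 9.69e-12).

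The Abcb9 window, on the - strand at chr5:124095749-124096048, is shown because of this range and its repeated motif.
Abcb9: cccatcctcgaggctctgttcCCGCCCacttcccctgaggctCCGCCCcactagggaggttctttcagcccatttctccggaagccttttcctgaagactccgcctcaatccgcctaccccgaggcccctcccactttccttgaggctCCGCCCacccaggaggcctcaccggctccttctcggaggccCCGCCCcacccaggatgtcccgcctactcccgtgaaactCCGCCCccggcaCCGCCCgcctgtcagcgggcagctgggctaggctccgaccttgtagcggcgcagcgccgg
It held 6 GC boxes and no other match, and its GC content was 68.7%.

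Other intracellular ABC proteins sit in mitochondria, peroxisomes and lysosomes. Abcb6, which transports porphyrins, was higher in CM by 0.84 ± 0.08 (adjusted p = 5.29e-06) and lower in DIFF than in CM (-0.81 ± 0.09, adjusted p = 9.84e-06). Abcb8 and Abcb10 of the inner mitochondrial membrane were lower in CM than in NoRX, with differences of -0.55 ± 0.07 (adjusted p = 0.000105) and -0.40 ± 0.08 (adjusted p = 0.00155). Both were also lower in DIFF (-0.49 ± 0.08 and -0.31 ± 0.09, adjusted p = 0.000638 and 0.0182), and both of these calls were lost with median centring (adjusted p = 0.0924 and 0.544) and with slide row as a block (adjusted p = 0.082 and 0.279). That of Abcb10 was also lost without NoRX replicate 1 (adjusted p = 0.0678), NoRX replicate 2 (adjusted p = 0.0563) or DIFF replicate 2 (adjusted p = 0.0565) and with array weights (adjusted p = 0.246). The other probe of Abcb8 was lower in CM too (-0.43, adjusted p = 0.0134) but did not pass in DIFF (-0.22, adjusted p = 0.235) in the fit of single probes.

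Abcd4, which takes part in the release of cobalamin from lysosomes, read 3.61, 3.68 and 3.70 in NoRX, 4.11, 4.09 and 4.13 in CM and 3.09 and 2.88 in DIFF. The groups did not overlap, with CM highest and DIFF lowest. Abcd4 was 2.18-fold lower in DIFF than in CM (-1.13 ± 0.08, adjusted p = 3.26e-07), 1.36-fold higher in CM than in NoRX (0.45 ± 0.07, adjusted p = 0.000286) and 1.60-fold lower in DIFF than in NoRX (-0.68 ± 0.08, adjusted p = 3.62e-05). Abcd3, the peroxisomal importer of branched-chain acids and bile acid precursors, was lower in DIFF than in CM (-0.77 ± 0.09, adjusted p = 2.39e-05) and than in NoRX (-0.47 ± 0.09, adjusted p = 0.00163; adjusted p = 0.155 with median centring). Its rise in CM, 0.30 ± 0.08 with adjusted p = 0.0091, was lost with slide row as a block (adjusted p = 0.195) and with median centring (adjusted p = 0.123). Abcd2, a peroxisomal importer of very long-chain acids, was not above background on any array.

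The proteins of the ABCE and ABCF subfamilies lack membrane-spanning parts and are not transporters. Abce1, which recycles ribosomes, Abcf1, which acts in translation initiation, and Abcf2 passed in no comparison, with differences of -0.15 to 0.12. Abcf3 was higher in CM than in NoRX by 0.54 ± 0.09 (adjusted p = 0.000322), and its other calls, 0.27 ± 0.10 for DIFF against NoRX (adjusted p = 0.0425) and -0.27 ± 0.10 for DIFF against CM (adjusted p = 0.031), were each lost when any 1 of the CM arrays was left out. The first was also lost without any 1 of the NoRX arrays or DIFF replicate 1 (0.11, adjusted p = 0.147), and the second without DIFF replicate 2 (-0.11, adjusted p = 0.141) and with median centring (-0.050, adjusted p = 0.786). In all, these calls were lost under 14 of 23 and 12 of 24 alternatives.

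**Figure D4:**
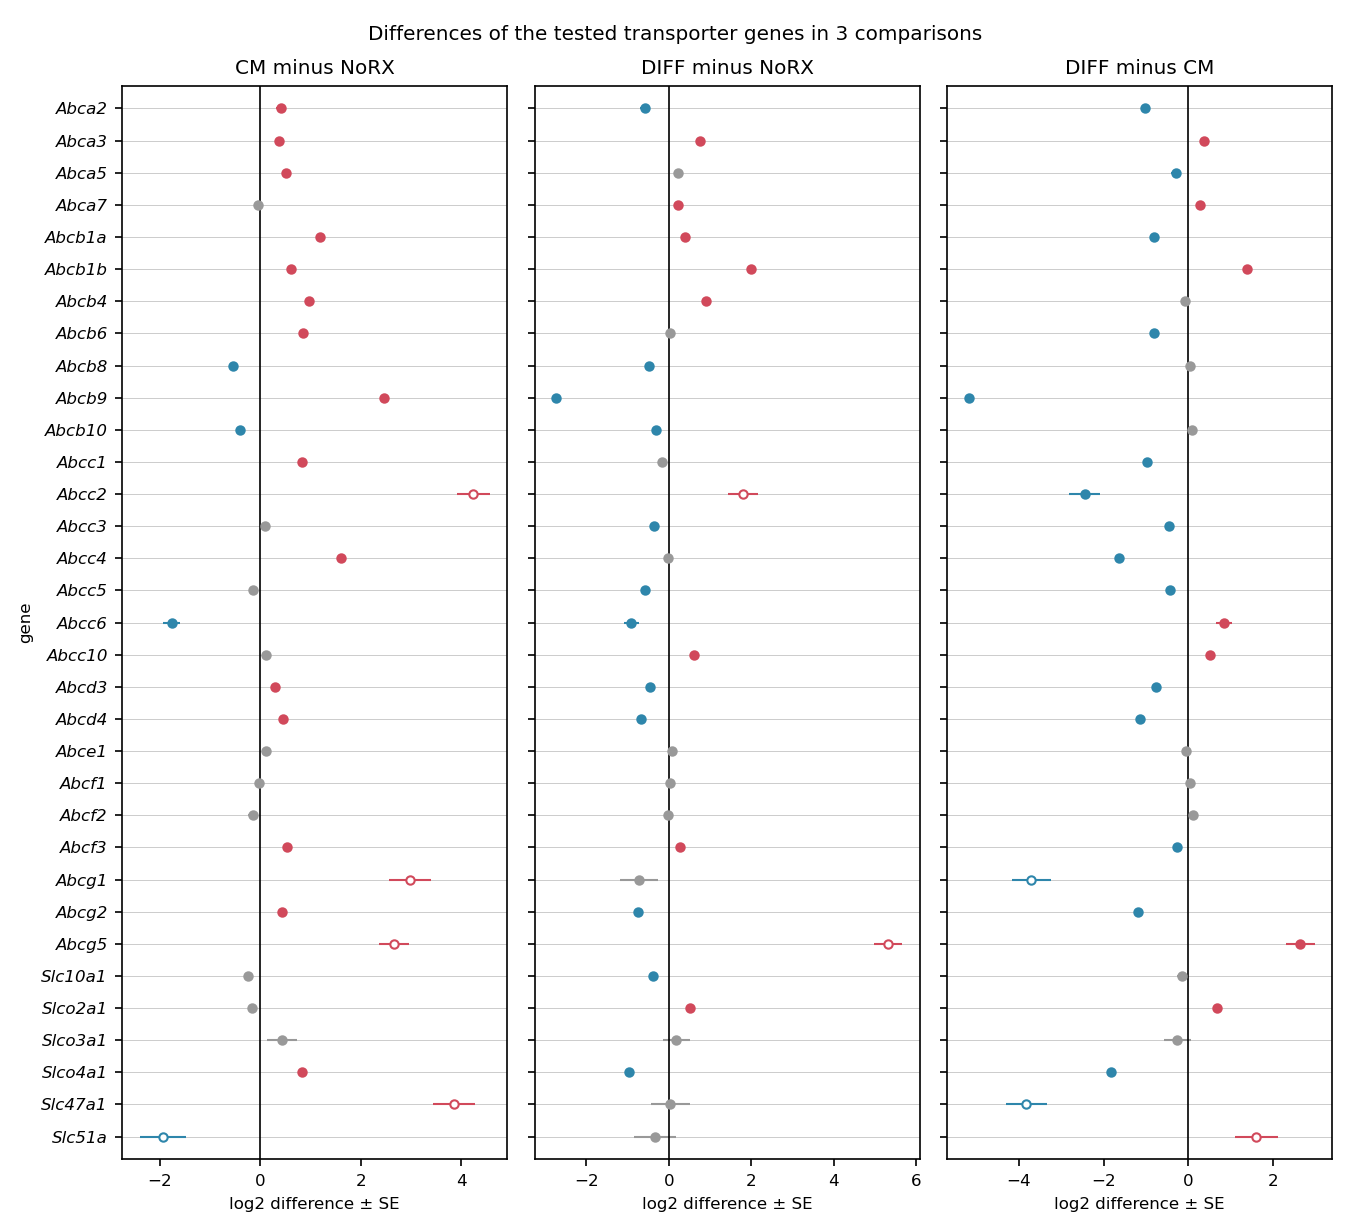
The log2 difference between groups is shown with its SE for the 33 tested genes, in red where called higher, in blue where called lower and in grey where not passed. An open point marks a called gene below background on all arrays of 1 group, for which at most a bound on the fold is known. Each panel has its own horizontal scale. Most points of CM minus NoRX lie right of 0, those of DIFF minus NoRX lie on both sides, and Abcb9 is farthest left in both DIFF panels.

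Of the SLC carriers, Slc47a1 rose from below background in CM. It encodes the proton-coupled exporter of organic cations and drugs known as MATE1. Slc47a1 read -6.77, -7.36 and -7.23 in NoRX, -3.13, -3.35 and -3.29 in CM and -7.36 and -6.80 in DIFF, and only the CM arrays were above background. It was at least 4.03-fold higher in CM than in NoRX, with measured means of -3.26 and -7.12 (adjusted p = 2.19e-05), and at least 3.12-fold higher in CM than in DIFF, whose mean was -7.08 (adjusted p = 3.52e-05). With normexp the CM difference of Slc47a1 from NoRX was 0.96 (adjusted p = 0.00774), and that of DIFF from CM lost its call (-0.50, adjusted p = 0.151).

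Slco4a1, a carrier of thyroid hormone and prostaglandins, read 0.58, 0.74 and 0.66 in NoRX, 1.59, 1.42 and 1.49 in CM and -0.19 and -0.44 in DIFF. CM was highest and DIFF lowest, with no overlap. Slco4a1 was 1.79-fold higher in CM than in NoRX (0.84 ± 0.09, adjusted p = 1.43e-05). In DIFF it was 1.96-fold lower than in NoRX (-0.97 ± 0.10, adjusted p = 1.09e-05) and 3.51-fold lower than in CM (-1.81 ± 0.10, adjusted p = 3.82e-08). Slco2a1, the prostaglandin uptake carrier, went the other way in DIFF, with levels of 6.41, 6.31 and 6.31 in NoRX, 6.21, 6.19 and 6.16 in CM and 7.01 and 6.72 in DIFF. Both DIFF arrays were above all others, by 0.52 ± 0.09 over NoRX (adjusted p = 0.00059) and 0.68 ± 0.09 over CM (adjusted p = 4.75e-05). Slco3a1, another carrier of prostaglandins, did not pass for the probe that stood for the gene, with differences of -0.25 to 0.44. Slco2b1, a carrier of steroid sulfates, was not above background on any array.

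Slc51a and Slc51b encode the subunits of the organic solute transporter that moves bile acids across the basolateral membrane. Slc51a read -4.26, -4.38 and -4.58 in NoRX, -5.62, -7.26 and -6.17 in CM and -4.43 and -5.03 in DIFF. All NoRX arrays were above background, no CM array was, and in DIFF only replicate 1 was. The level in NoRX was at least 2.05-fold above that in CM, with measured means of -4.41 and -6.35 (adjusted p = 0.00408). This call was lost with slide row as a block (-1.21, adjusted p = 0.134) and with normexp (-0.56, adjusted p = 0.0625). The value of -1.21 is the difference within row 1, the only row that held both media. It rests on 1 CM array, on which Slc51a was not above background, so its size is not fixed. For DIFF over CM the same calculation gave 1.64-fold, with a DIFF mean of -4.73 (adjusted p = 0.0176). This is not a strict bound, since DIFF replicate 2 was not above background and entered at its measured signal. The fitted difference was 0.80 with normexp, and the call was lost with array weights (adjusted p = 0.312). Without DIFF replicate 1 the difference was 1.31 and the call was lost too. That value rests on 1 DIFF array, on which Slc51a was not above background. Slc51b was not above background on any array.

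The Slc51a window, on the - strand at chr16:32487830-32488129, is shown as that of the carrier gene that fell below background in CM.
Slc51a: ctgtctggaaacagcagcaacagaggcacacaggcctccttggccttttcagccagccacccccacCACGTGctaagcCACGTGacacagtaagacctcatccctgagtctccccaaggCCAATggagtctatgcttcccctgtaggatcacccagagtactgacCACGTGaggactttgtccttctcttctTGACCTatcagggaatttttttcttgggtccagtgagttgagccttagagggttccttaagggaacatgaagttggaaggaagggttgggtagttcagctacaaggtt
It held 3 E boxes, 1 CCAAT box and 1 nuclear receptor hexamer.

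Slc10a1, the sodium-coupled uptake carrier of bile salts, read 8.99, 8.96 and 9.02 in NoRX, 8.83, 8.77 and 8.66 in CM and 8.79 and 8.42 in DIFF. CM and DIFF lay below every NoRX array and overlapped each other. The difference was -0.24 ± 0.09 for CM (adjusted p = 0.0535) and -0.39 ± 0.10 for DIFF (adjusted p = 0.0118), and the second was lost with quantile normalization (-0.15, adjusted p = 0.0654), with median centring (-0.21, adjusted p = 0.106) with array weights (adjusted p = 0.0826) and with slide row as a block (adjusted p = 0.38). Without DIFF replicate 2 it was -0.20 (adjusted p = 0.0263). A second probe of the same Slc10a1 accession was not above background on any array, so the probes of this gene do not give 1 reading.

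Genes that work with these transporters were described from lists. Of all genes tested, 26.9% were higher and 25.3% lower in CM than in NoRX, and 14% higher and 28.1% lower in DIFF. The list counts were not tested against these shares. Of 18 other ABC genes with a probe, 11 were tested, and in CM 3 were higher, none lower and 8 did not pass. The 3 were Tap1 and Tap2, whose proteins together load peptides for antigen presentation, with 1.67 ± 0.18 and 1.67 ± 0.09, and Abca4, at least 2.54-fold higher. Abca4 was above background in CM only and passed the filter through that group. In DIFF against NoRX 6 of the 11 were higher and none lower, where 14% of all genes were higher. Of the 6, the spots of Abca17 and Tap1 on DIFF replicate 2 had an uneven surround. Abca17 read -1.02 and 1.46 in DIFF, and without such spots 5 of the 11 were higher and the Abca17 difference fell from 1.70 to 0.46 (adjusted p = 0.26). Of 20 other organic ion transporters 5 were tested, and the hepatocyte uptake carriers Slco1a1 and Slco1b2 were not among them. The organic cation and carnitine transporter gene Slc22a4 read -1.97, -2.02 and -1.86 in NoRX, 0.05, 0.14 and 0.05 in CM and -3.59 and -4.01 in DIFF. It rose by 2.03 ± 0.12 in CM (adjusted p = 2.8e-07) and fell in DIFF, -1.85 ± 0.14 against NoRX (adjusted p = 9.51e-07), with no overlap of the groups.

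Of 16 genes of bile acid synthesis and conjugation, 9 were tested, and Cyp7a1, Cyp8b1 and Cyp27a1 were not. In CM 2 were higher and 2 lower, and in DIFF 3 were higher and 2 lower than in NoRX. The share called was 44.4% and 55.6%, with 52.2% and 42.1% over all genes. Cyp39a1, which hydroxylates 24-hydroxycholesterol, and the peroxisomal oxidase gene Acox2 rose in DIFF by 3.76 ± 0.11 (adjusted p = 8.67e-10) and 2.30 ± 0.11 (adjusted p = 3.07e-08). Baat, which conjugates bile acids to amino acids, was at least 1.70-fold higher in CM (adjusted p = 0.00142). Baat was above background in CM only and passed the filter through that group, so its p-value is no independent evidence. Of 22 transporter regulators 20 were tested, with 6 higher and 5 lower in CM and 1 higher and 10 lower in DIFF than in NoRX. The share called was 55% in each, near the 52.2% over all genes in CM, with 42.1% in DIFF. Rxra, the partner of many nuclear receptors, and Nr1h3, the sterol-sensing liver X receptor, were higher in CM by 1.66 ± 0.11 (adjusted p = 4.14e-07) and 1.03 ± 0.08 (adjusted p = 2.44e-06). The bile acid receptor gene Nr1h4 differed by -0.03 ± 0.08 in CM and 0.09 ± 0.09 in DIFF and did not pass. Ppara, the fatty acid receptor, fell by 1.19 ± 0.10 in CM (adjusted p = 3.36e-06) and was 2.01 ± 0.11 higher in DIFF (adjusted p = 9.98e-08).

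Of 15 sterol efflux and uptake partners 13 were tested, with 5 higher and 5 lower in CM and 5 higher and 4 lower in DIFF than in NoRX. The share called was 76.9% and 69.2%, with 52.2% and 42.1% over all genes. Apoa1, the acceptor of cholesterol from Abca1, read -6.14, -5.95 and -6.05 in NoRX, -5.20, -5.24 and -4.35 in CM and 5.61 and 5.17 in DIFF. It was at least 1617-fold higher in DIFF than in NoRX (adjusted p = 1.32e-10), while Abca1 itself was not above background. Apoa1 was above background on no NoRX array and 1 CM array and passed the filter through DIFF, so its p-value is no independent evidence. Of 16 canalicular membrane partners with a probe 14 were tested, with 5 higher and 3 lower in CM and 2 higher and 7 lower in DIFF. The share called was 57.1% and 64.3%, with the same shares over all genes as above. Myo5b, the motor that carries transporters to the canalicular membrane, read 2.64, 2.55 and 2.50 in NoRX, 3.53, 3.66 and 3.60 in CM and 0.31 and 0.31 in DIFF. It rose by 1.03 ± 0.07 in CM (adjusted p = 5.51e-07) and fell by 2.25 ± 0.08 in DIFF (adjusted p = 1.98e-09), again with CM highest and DIFF lowest.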

How the data were processed

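RNA of BMEL cells was measured on 8 one-colour Agilent arrays. The authors deposited scanner files made with Agilent Feature Extraction 11.0.1.1, whose processed signal is an intensity after background subtraction, per the file headers. The authors' table of the whole series repeats these intensities exactly (largest difference 0). From these, the log2 signal of each spot was taken minus the array's 75th percentile over all spots that are no controls; control spots and outlier spots were then left out and spots of a probe averaged. Of 55681 probes, a RefSeq table of GRCm38.p6 named 27235 by accession, and 28446 had no match and were not used. The array was designed on another build, so no gene coordinates are given, only those of the RefSeq start windows. Where a gene had several probes, its brightest on average stood for it. For the transporter genes, 33 had a single probe and 9 had several. Close paralogs such as Abcb1a and Abcb1b can share probe signal.

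A single limma 3.58.1 model (R 4.3.3; lmFit and eBayes, trend on) covered the 8 arrays and 14035 genes. Its two-sided p-values were adjusted by Benjamini-Hochberg and called at 0.05. All groups shared 1 estimate of the spread per gene. The SEs and p-values of DIFF differences therefore do not reflect the larger spread of the DIFF arrays alone (median SD 0.194, with 0.064 in NoRX and in CM). The function was tested on simulated data. Full values are given for members called with a log2 difference of at least 1 and no overlap of the groups, and for their counterparts. Genes of the related lists were named from those that passed, together with partners and receptors of the members. The members and lists were chosen with earlier results of these data known, so counts over them are descriptions and no list was tested. The number of arrays limits the precision.

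Alternatives covered scaling, normexp background correction (offset 50, on the median signal, since the mean signal was not used here), the filter, the probe rule, array weights, the fit, slide row and replicate number as blocks, averaged DIFF arrays and each array left out. Single-probe fits, row 2 alone and a percentile without outlier spots were added after the data were seen. The start windows were searched on both strands. Figures were drawn with matplotlib 3.10.9.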

Additional observations from a re-analysis of the deposited data

Results flagged for a closer look

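Signals above background were seen on probes that the gene-level comparisons do not use. The probe of Abcb11, the bile salt export pump, was well above background on CM replicate 2 alone, at -4.61 on the log2 scale, where the highest NoRX array read -5.72. A second probe of Slco3a1, for another RefSeq transcript than the one that stood for the gene, was well above background on no NoRX array but on every CM array, at -4.33, -4.50 and -4.63, and on DIFF replicate 1, at -4.93. Its highest NoRX value was -6.05. In the fit of single probes this Slco3a1 probe was higher in CM than in NoRX by 2.14 ± 0.51 (limma, adjusted p = 0.00483), and with normexp the difference was 0.35 (adjusted p = 0.291). The probe passed the filter only through the arrays where it was high, so this call is no independent evidence. Below background in NoRX, it leaves the size of the difference not fixed.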

How the results depend on the processing

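Of the transporter genes called, 19 of 23 in CM against NoRX kept their call under each of 24 alternatives, 11 of 22 in DIFF against NoRX under each of 23, and 14 of 25 in DIFF against CM under each of 24. For CM against NoRX the median difference was 0.40 with quantile normalization, 0.40 with median centring, 0.31 without the filter (42 genes) and 0.40 for genes above background on all arrays, and 0.40 to 0.45 with 1 array left out. The lower genes numbered 8 with array weights, with only both groups fitted and with the DIFF arrays averaged, and 4 to 8 with 1 array left out. For DIFF against NoRX, 7 genes were lower and the median was 0.16 with median centring, 6 were higher with array weights, and 6 were higher and 6 lower with slide row as a block. With 1 array left out the median ran from -0.14 to 0.0084. For DIFF against CM the median was -0.050 with median centring and -0.11 without the filter, and 5 genes were higher with array weights; with 1 array left out it ran from -0.43 to -0.11. The cause of these moves was not tested.

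Some directions reversed. Abcc5 in DIFF against CM was 0.046 with the mean of all probes, which mixes its transcripts, and Abcf2 in DIFF against NoRX ranged from -0.20 (DIFF replicate 1 left out) to 0.15 (DIFF replicate 2 left out). With normexp, Abca4, Baat, Slc27a5, Klb and Atp7b in DIFF against CM were 0.052, 0.19, 0.18, 0.12 and 0.31, and Atp7b in DIFF against NoRX was 0.16. Nr1i3 in CM against NoRX was 1.48 with the mean of all probes.

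Replicate numbers did not pair the arrays: deviations of same-numbered arrays correlated at -0.0568 to 0.175. With the replicate block, 19 genes were higher and 4 lower in CM against NoRX, 8 and 12 in DIFF against NoRX, and 8 and 15 in DIFF against CM. Abcc2, Abcg1, Abcg5, Slc47a1 and Slc51a were below background throughout at least 1 group, where at most bounds hold, and their fitted differences shrank with normexp.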
